A study of Mus musculus with 13 samples.

Results

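The genes described here encode 9 growth factors: the trophic factors Gdnf, Bdnf, Ntf3, Cntf and Igf1, the morphogen Shh, and the transforming growth factor beta (TGF-beta) ligands Tgfb1, Tgfb2 and Tgfb3. They were taken by symbol from a hippocampus table and a cultured glia table, in which all 9 were found among 23238 and 24542 gene symbols. RNA sequencing covered 13 mouse libraries. The tissue table held 7 hippocampus libraries of 3xTg mice, an Alzheimer's model in which neurons, through a Thy1 promoter, overexpress mutant forms of human APP and tau on a mutant presenilin background. In 4 of them adeno-associated virus 9 (AAV9) had delivered Nurr1, the product of Nr4a2, together with Foxa2 (N+F), and in 3 a control AAV9 had been given. The labels give amyloid beta as the treatment of every tissue library and state no age. The culture table held 6 libraries of glia from ICR mouse pups at postnatal day 1, from hippocampus and from cortex, with 1 library per group. For each region these were an N+F lentivirus with amyloid beta, a control lentivirus with amyloid beta (called the amyloid beta control) and a control lentivirus with no added amyloid beta (called untreated, after its label). No source used here names the promoters of the vectors or the cells they reached, or says whether libraries came from separate animals or cultures. Values of p then measure only the spread between these libraries, which may be technical.

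As background, Bdnf and Ntf3 are neurotrophins, which bind the receptor kinases TrkB and TrkC and share the receptor p75. Gdnf signals through a lipid-anchored coreceptor and the kinase Ret. Cntf, a cytokine of the interleukin 6 family with no signal peptide, is made by astrocytes, and signals through Cntfr, Lifr and Il6st. Igf1 acts through the kinase Igf1r and is held by secreted binding proteins. Shh binds Ptch1, which frees Smo to activate the Gli transcription factors. The 3 TGF-beta ligands are secreted in a latent form tied to Ltbp proteins, are released by integrins and proteases, and signal through Tgfbr1, Tgfbr2 and the Smad proteins.

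The delivered genes encode transcription factors, so the sequence just before the start sites is shown for 4 of the members. These are Tgfb1 and Igf1, the members at least 2-fold higher with N+F in both culture regions, and Tgfb2 and Gdnf, which are described at length below. RefSeq windows of 250 bases before a start site (build GRCm38.p6) were found for 7 of the 9 members, 15 windows in all. The windows are written 5′ to 3′ on the strand of the gene. Those of Tgfb1 (chr7:25686752-25687001, plus strand), Igf1 (chr10:87860861-87861110, plus strand), Tgfb2 (chr1:186705990-186706239, minus strand) and Gdnf (chr15:7809798-7810047, plus strand) follow, with capitals marking TATAAA or GGGCGG on either strand.
Tgfb1: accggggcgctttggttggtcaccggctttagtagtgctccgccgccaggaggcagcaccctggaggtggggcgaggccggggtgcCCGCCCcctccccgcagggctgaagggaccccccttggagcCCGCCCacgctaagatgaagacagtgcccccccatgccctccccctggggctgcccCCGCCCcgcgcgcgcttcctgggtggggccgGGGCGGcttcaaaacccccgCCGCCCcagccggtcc
Igf1: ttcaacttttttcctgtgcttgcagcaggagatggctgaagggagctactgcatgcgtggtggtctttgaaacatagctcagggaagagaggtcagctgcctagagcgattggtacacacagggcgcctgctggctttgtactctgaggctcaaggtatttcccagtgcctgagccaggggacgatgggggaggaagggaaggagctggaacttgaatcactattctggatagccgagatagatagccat
Tgfb2: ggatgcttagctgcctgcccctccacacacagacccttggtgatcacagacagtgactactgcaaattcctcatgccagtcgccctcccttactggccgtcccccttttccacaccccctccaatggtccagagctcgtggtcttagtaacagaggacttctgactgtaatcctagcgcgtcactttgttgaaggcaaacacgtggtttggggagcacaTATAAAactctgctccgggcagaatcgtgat
Gdnf: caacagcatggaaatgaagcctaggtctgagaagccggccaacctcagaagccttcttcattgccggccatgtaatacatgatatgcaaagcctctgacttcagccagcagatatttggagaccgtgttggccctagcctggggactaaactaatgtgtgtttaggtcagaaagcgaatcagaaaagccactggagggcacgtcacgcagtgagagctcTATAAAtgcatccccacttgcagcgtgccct

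The Tgfb1 window was 75.2% G and C, against a median of 52.4% over all 32817 windows of this length, and held 5 GC boxes (GGGCGG or its reverse complement). A GC box was present in 32.7% of all windows. The Tgfb2 and Gdnf windows shown each held a TATA box (TATAAA, searched on both strands), both from 31 to 26 bases before the start. A TATA box was present in 12.4% of all windows. Gdnf had another window (chr15:7813477-7813726, plus strand), which held neither motif. Neither motif was in the Igf1 window. The NBRE motif AAAGGTCA, the monomer site of the Nr4a family, was present in 1.34% of all windows, and the forkhead motif TGTTTAC in 3.16%, each counted on both strands. Neither was found in any of the 15 member windows, which says only that these letters do not occur there.

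Tissue libraries held 10194437 to 25139406 counts and culture libraries 52189025 to 78273121, so 3 counts, the limit that a count of 0 allows, correspond to 0.119 to 0.294 CPM (counts per 1000000 counts) in tissue and 0.0383 to 0.0575 CPM in culture. Intervals and limits cover counting error only. The delivered genes were higher in culture, where Nr4a2 was 146 times (95% counting interval 129 to 166) and 7.19 times (6.39 to 8.10) the amyloid beta control in hippocampal and cortical glia. Foxa2 was at least 3494-fold and 273.8-fold higher, set against 3 counts per library. In tissue Nr4a2 did not pass the test (log2 fold change -0.22 ± 0.24 SE, edgeR adjusted p = 0.872), and Foxa2 had 26, 5, 1 and 6 counts with N+F, against 5, 1 and 1 counts in controls (two-sided exact permutation p = 0.114, where 0.0571 is the smallest possible). Markers of neurons, glia and vessels were all detected in tissue. The libraries labelled untreated do not look like the other glia cultures. They held neuron, oligodendrocyte, endothelial and choroid plexus markers far above the amyloid beta controls, and their neuron sums were as high as the 3468 to 4655 CPM of the hippocampus libraries, a table normalized separately. The summed level of 6 neuron markers was 274 and 272 CPM in the amyloid beta control, against 4839 and 5452 CPM in untreated hippocampal and cortical cultures. For 6 oligodendrocyte markers it was 294 and 171 CPM in the amyloid beta control, against 8807 and 7424 CPM in untreated cultures. With N+F these markers summed to 254 CPM in hippocampal and 438 CPM in cortical glia. Endothelial markers summed to 9.14 and 7.49 CPM in the amyloid beta control, against 152 and 154 CPM untreated. With N+F they summed to 11.3 CPM in hippocampal and 73.3 CPM in cortical glia, where Cdh5 gave 49.9 CPM. Cldn5 was at 0 in all 4 libraries with amyloid beta. Choroid plexus markers summed to 4.15 and 2.01 CPM in the amyloid beta control, against 4348 and 497 CPM untreated. With N+F they summed to 10.5 CPM in hippocampal and 405.7 CPM in cortical glia, where Aqp1 alone gave 404.5 CPM. In cortical glia 8 mural cell and fibroblast markers summed to 15220 CPM with N+F and 812 CPM in the amyloid beta control, and in hippocampal glia to 2660 and 1500 CPM. The collagen gene Col1a1 alone gave 2894 CPM in the cortical N+F library, against 47.03 CPM in its amyloid beta control, and 111 CPM with N+F against 110 CPM in the control of hippocampal glia.

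**Figure D1:**
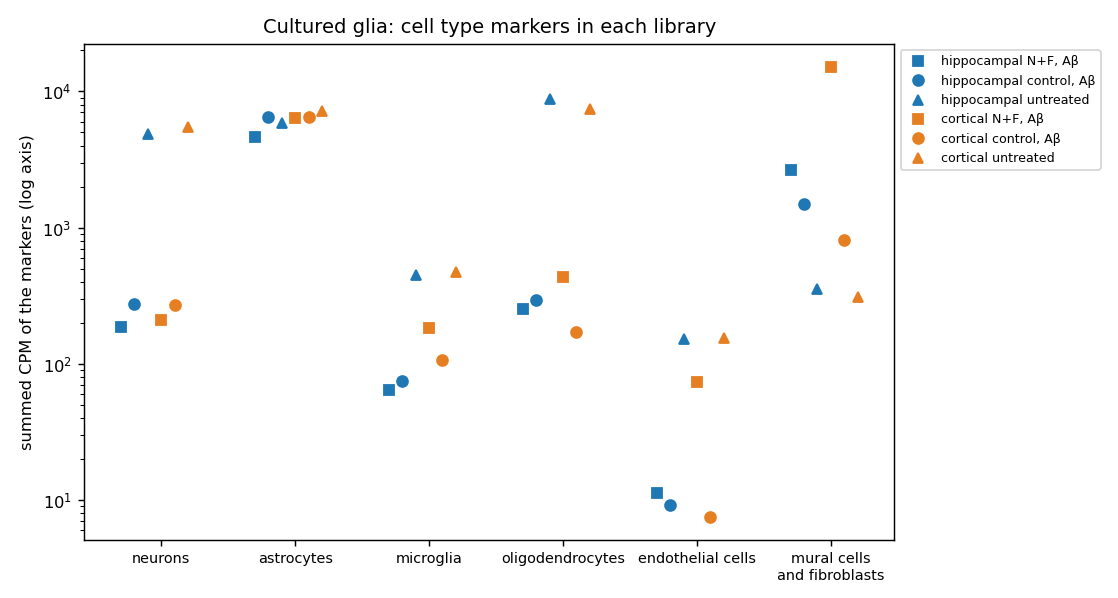
Summed CPM (log axis) of the markers of 6 cell types in each of the 6 culture libraries, with region by colour and condition by symbol. Untreated libraries sit high for neurons (4839 and 5452 CPM) and oligodendrocytes, and the cortical N+F library stands apart for mural cells and fibroblasts at 15220 CPM.

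The tissue comparison asked whether N+F delivery to the 3xTg hippocampus was accompanied by other levels of these factors. None of the 8 members that passed the count filter met the edgeR threshold, where 0.11% of 15523 genes did, 0.00644% higher and 0.103% lower. At an unadjusted p under 0.05 there was 1 member, Tgfb2, where 8.46% of genes had one. Tgfb2 came nearest: its level was lower in every N+F library than in every control library. The neurotrophins, Igf1, Shh, Tgfb1 and Tgfb3 overlapped between groups. In bulk tissue, fewer cells of a type and less RNA per cell cannot be told apart. Levels are CPM after edgeR's TMM scaling between libraries, and fold changes are N+F over control on the log2 scale.

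Tgfb2, a TGF-beta ligand made by neurons and glia, measured 16.8, 8.32, 10.3 and 10.4 CPM in the N+F libraries, against 19.2, 24.1 and 20 CPM in the controls. All 4 N+F values lay below all 3 control values, with N+F library 1 closest to them. The means were 11.4 ± 3.68 CPM with N+F and 21.1 ± 2.66 CPM in controls (SD, n = 4 and 3). The log2 fold change was -0.88 ± 0.22 (SE), with an edgeR unadjusted p of 0.00165 and an adjusted p of 0.234. By unadjusted p it stood at rank 107 of 15523 genes. Its groups were the only ones among the 8 members tested that did not overlap, which 8.11% of all genes tested also showed, 4.19% with N+F lower and 3.92% with N+F higher. DESeq2 gave Tgfb2 an adjusted p of 0.0371 and called 0.948% of genes, 0.445% higher and 0.503% lower, so whether it passed depended on the tool. With any 1 library left out its log2 fold change ran from -1.12 to -0.76, and the edgeR adjusted p from 0.112 to 0.547. All 8 mural cell and fibroblast markers had negative log2 fold changes, of which Col1a1 passed the test, and they summed to 43.8, 64.9, 56.4 and 70.0 CPM, against 77.1, 384 and 372 CPM in controls 1 to 3. All 6 endothelial markers had negative log2 fold changes too, with 0 past the test, and summed to 22.0, 27.0, 20.4 and 19.9 CPM with N+F, against 30.1, 30.4 and 46.3 CPM in controls. Of 7 markers of excitatory hippocampal neurons all had negative log2 fold changes and 3 fell: Fibcd1 (-1.89, edgeR adjusted p = 0.0267), Neurod6 (-1.33, 0.0342) and Spink8 (-1.51, 0.0436). These 7 markers summed to 1226, 2020, 1738 and 1505 CPM with N+F, against 1718, 2015 and 2164 CPM in controls. The sums of the mural and endothelial markers did not overlap between groups, and those of the excitatory markers did. All 8 striatal neuron markers had positive log2 fold changes, with 0 past the test, and summed to 2522, 2086, 2264 and 1428 CPM with N+F, against 936, 292 and 2054 CPM in controls. Inhibitory neuron markers summed to 874, 917, 801 and 795 CPM with N+F, against 701, 605 and 676 CPM in controls, which did not overlap. With any 1 N+F library left out, or with a replicate block, edgeR called 0 genes, so the calls of Col1a1 and of the 3 excitatory markers were lost there. All 6 choroid plexus markers had negative log2 fold changes, with 0 past the test. They summed to 251, 842, 163 and 3931 CPM with N+F, against 2852, 2805 and 1130 CPM in controls. Markers of oligodendrocytes (6 of 6) and their precursors (5 of 5) were negative too, as were 5 of 7 astrocyte and 5 of 7 microglia markers. Of 6 neuron markers 3 were negative and 3 positive. The part of these marker differences in the Tgfb2 level was not tested.

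The other TGF-beta ligands overlapped between groups. Tgfb1, the ligand that microglia make and need, measured 7.43, 5.90, 8.30 and 4.16 CPM with N+F, against 6.19, 11.1 and 5.69 CPM in controls. The highest value was in control library 2 and the lowest in N+F library 4. Its log2 fold change was -0.25 ± 0.30 (95% interval -0.90 to 0.41, edgeR adjusted p = 0.894). Tgfb3 measured 14.6, 8.23, 14.4 and 15.1 CPM with N+F, against 13.6, 16.4 and 15.7 CPM in controls. N+F library 2 stood alone at the low end and the others mixed with the controls. The log2 fold change of Tgfb3 was -0.21 ± 0.21 (95% interval -0.67 to 0.24, edgeR adjusted p = 0.854).

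Among the trophic factors, Igf1, a growth factor of microglia and some interneurons, was the steadiest member with N+F. It measured 32.0, 29.8, 29.9 and 31.0 CPM there, against 30.4, 40.7 and 29.1 CPM in controls. Control library 2 lay above all others, and the log2 fold change was -0.12 ± 0.14 (95% interval -0.43 to 0.20, edgeR adjusted p = 0.892). Bdnf, which excitatory neurons release with activity, measured 13.05, 17.7, 19.95 and 20.95 CPM with N+F, against 17.0, 20.97 and 19.2 CPM in controls. Only N+F library 1 lay below the control range, and that library also had the lowest neuron marker sum, 3468 CPM, against 3869 to 4655 CPM in the other 6. The part of the neuron marker sum in that Bdnf value was not tested. The log2 fold change of Bdnf was -0.08 ± 0.18 (95% interval -0.47 to 0.30, edgeR adjusted p = 0.946). Ntf3, the ligand of TrkC, had 1.11, 3.40, 1.38 and 2.48 CPM with N+F, against 2.08, 2.67 and 2.29 CPM in controls. Its N+F values lay on both sides of the control range (log2 fold change -0.15 ± 0.42, edgeR adjusted p = 0.958). Cntf had 1.00, 2.06, 0.395 and 1.84 CPM with N+F, against 2.72, 2.92 and 1.27 CPM in controls. Its lowest value rested on 4 counts in N+F library 3, and its log2 fold change was -0.79 ± 0.51 (95% interval -1.90 to 0.33, edgeR adjusted p = 0.751).

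Shh and Gdnf complete the set in tissue. Shh had 2.01, 2.86, 1.48 and 2.24 CPM with N+F, against 2.69, 1.84 and 1.82 CPM in controls. The groups mixed throughout, with a log2 fold change of 0.01 ± 0.36 (95% interval -0.78 to 0.80, edgeR adjusted p = 0.997). Gdnf did not pass the count filter, with 9, 4, 5 and 6 counts in the N+F libraries, against 3, 3 and 7 counts in controls. Its means were 0.559 ± 0.238 CPM with N+F and 0.304 ± 0.228 CPM in controls (SD, n = 4 and 3; two-sided exact permutation p = 0.229). The smallest two-sided p this test can give is 0.0571, so it cannot pass a threshold of 0.05.

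**Figure D2:**
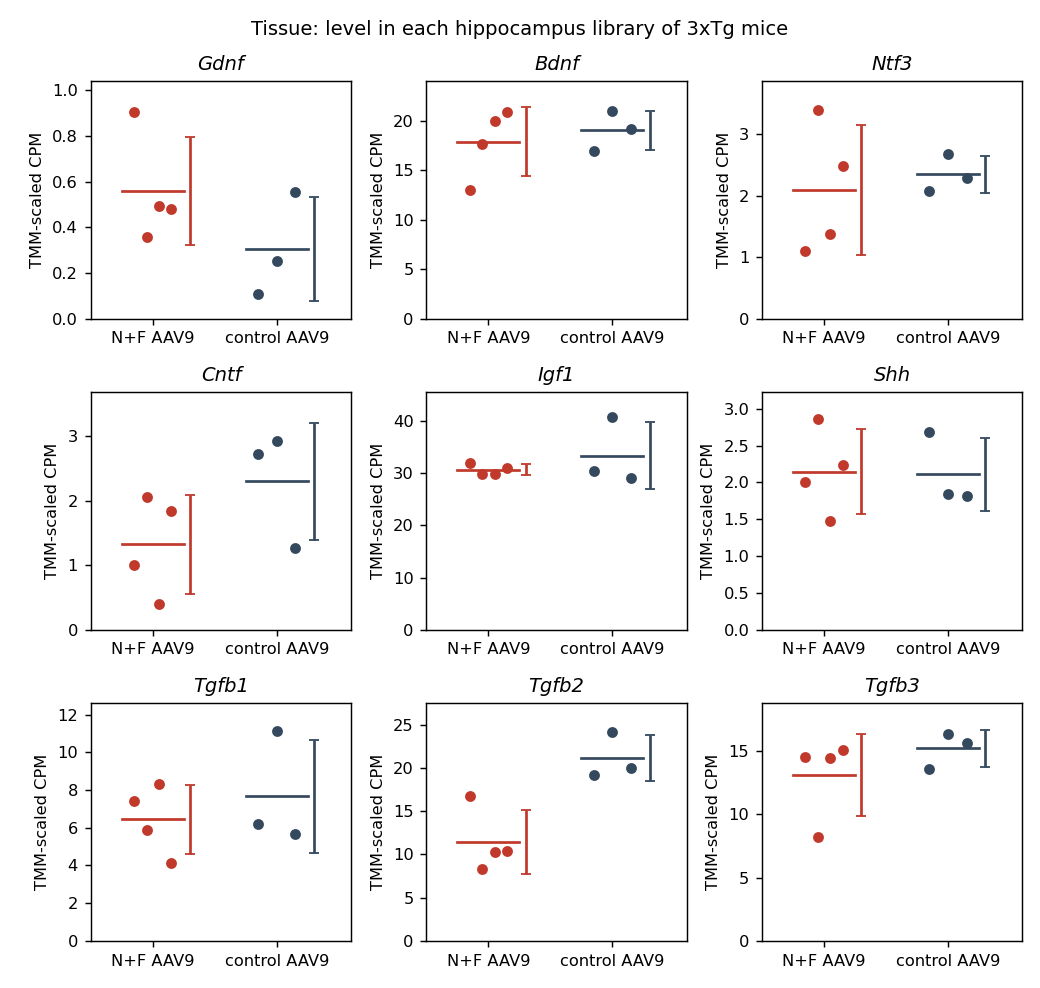
Level of each member (TMM-scaled CPM, linear axes from 0) in each of the 4 N+F and 3 control hippocampus libraries, with 1 point per library, a line at the mean and a bar of 1 SD. The Tgfb2 points separate, 8.32 to 16.8 CPM with N+F against 19.2 to 24.1 CPM in controls, and all other panels overlap.

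Receptors, carriers and targets of the same pathways were then counted in tissue. Of 16 TGF-beta target genes tested, 1 passed, the collagen gene Col1a1, which fell by 4.21 on the log2 scale (SE 0.65, edgeR adjusted p = 0.0375). This call was 1 of those lost with any 1 N+F library left out. Col1a1 averaged 5.12 ± 2.25 CPM with N+F and 96.6 ± 73.2 CPM in controls (SD, n = 4 and 3). The target list had a median log2 fold change of -0.76, beside -0.004 over all genes tested, and 4 of its genes are also in the fibroblast marker list described above. Among 16 TGF-beta receptor and signalling genes 0 passed. The receptor gene Tgfbr2 came nearest, at 5.96 ± 0.939 CPM with N+F and 10.2 ± 0.894 CPM in controls, with groups that did not overlap (log2 fold change -0.78, edgeR adjusted p = 0.255), and Smad2 had 0.27 (adjusted p = 0.662). Among 17 latency and activation genes 0 passed, and the nearest were Dcn (-1.11) and the integrin subunit Itgb1 (-0.38), both with an adjusted p above 0.5. The medians of these lists were -0.09 and -0.19.

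No gene passed in the other pathway lists. Of 14 neurotrophin receptor and processing genes, Mmp9 and Sort1, a sorting receptor for proneurotrophins, came nearest. Sort1 averaged 85.5 ± 7.85 CPM with N+F and 115 ± 1.65 CPM in controls (log2 fold change -0.42, edgeR adjusted p = 0.273). Mmp9 had 1.00 ± 0.239 CPM with N+F and 5.94 ± 5.17 CPM in controls (-2.53, adjusted p = 0.221). Of 13 genes for GDNF family and CNTF receptors, related receptors and downstream signalling, Gfra2 and Osmr came nearest. The Gdnf family coreceptor Gfra2 had 147 ± 12.8 CPM with N+F and 118 ± 10.5 CPM in controls (0.31, edgeR adjusted p = 0.493), and Osmr had -0.79. Of 14 IGF receptor and binding protein genes, the insulin receptor Insr had 0.72 and Igfbp5 -0.62, with adjusted p of 0.285 and 0.341. Of 17 hedgehog pathway genes, Gpr161 and Gas1 were nearest at -0.64 and -0.66, with adjusted p of 0.782 and 0.809. Of 13 other trophic ligands, Igf2 had -0.41, with an adjusted p of 0.723. List medians ran from -0.22 for the IGF genes to 0.09 for the other ligands.

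In culture the effect of N+F was read in glia that all had amyloid beta, as the N+F library over the amyloid beta control of the same region. Igf1 and Tgfb1 were at least 2-fold higher with N+F in both regions. Bdnf was 2.05 and 1.77 times its control in hippocampal and cortical glia, and Gdnf 1.79 and 17.8 times. Ntf3 and Shh were higher by larger factors than Bdnf in 1 region each. Cntf was lower in both regions, by less than 2-fold in hippocampal glia. Each value comes from 1 library, so these differences have no replicate check, and the intervals cover counting error only. Counted as called were genes at least 2-fold different the same way in both regions, with 1 CPM or more in a library of each pair. By that rule 2 of the 7 members that reached 1 CPM in both pairs were called, where 3.53% of 13479 genes were: 2 higher, where 3.26% were, and 0 lower, where 0.267% were. In hippocampal glia alone 4 of 8 members were at least 2-fold higher, where 8.22% of genes were, and 0 lower, where 1.62% were. In cortical glia alone 4 of 8 were higher, where 15.5% were, and 1 lower, Cntf, where 18.4% were. Median ratios over all genes differed between the pairs, at 0.12 and -0.19 on the log2 scale. TMM scaling would shift the ratios by -0.13 in hippocampal and 0.17 in cortical glia. That shift takes cortical Cntf, at a log2 ratio of -1.12, short of 2-fold.

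Tgfb1 stood at 17.2 CPM with N+F and 7.13 CPM in the amyloid beta control of hippocampal glia, a ratio of 2.42 (95% counting interval 2.18 to 2.69). In cortical glia it stood at 39.2 CPM with N+F and 7.69 CPM in the control, a ratio of 5.10 (4.62 to 5.63). Both N+F libraries lay above both controls, the cortical one highest. Tgfb1 was the member with the GC-rich window and 5 GC boxes shown above. GC boxes also lay in windows of Bdnf and Ntf3, and none in that of Igf1. Their part in the N+F ratios was not tested. The other ligands of the family differed by less than 2-fold in both regions. Tgfb2 stood at 158 CPM with N+F and 154 CPM in the control of hippocampal glia (ratio 1.02, 0.994 to 1.05). Cortical Tgfb2 was 176 CPM with N+F and 99.8 CPM in the control (1.76, 1.71 to 1.82). Tgfb3 stood at 189 CPM with N+F and 180 CPM in the control of hippocampal glia (1.05, 1.02 to 1.08), against 70.2 CPM with N+F and 134 CPM in the control of cortical glia (0.526, 0.508 to 0.545). On the TMM scale the hippocampal log2 ratios of Tgfb2 and Tgfb3 turned to -0.10 and -0.06. The cortical ratios stand beside the fibroblast marker sums above, 15220 CPM with N+F and 812 CPM in the control, and their part in the result was not tested. In hippocampal glia those sums were 2660 and 1500 CPM.

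Igf1 stood at 14.8 CPM with N+F and 6.51 CPM in the control of hippocampal glia (ratio 2.28, 2.04 to 2.55). The cortical pair had 16.2 CPM with N+F and 5.73 CPM in the control (2.83, 2.51 to 3.20). The regions lay close together under both conditions. Microglia markers, of a cell type that makes Igf1, summed to 64.2 CPM with N+F and 75.4 CPM in the control of hippocampal glia, and to 183 CPM with N+F and 108 CPM in the control of cortical glia. Mural cell and fibroblast marker sums, given above, were higher with N+F in both regions. The part of either set of sums in the Igf1 ratios was not tested. Bdnf stood at 14.3 CPM with N+F and 6.95 CPM in the control of hippocampal glia (2.05, 1.84 to 2.30). In cortical glia it stood at 22.4 CPM with N+F and 12.6 CPM in the control (1.77, 1.63 to 1.93). On the TMM scale both log2 ratios of Bdnf were short of 2-fold, at 0.907 in hippocampal and 0.995 in cortical glia. Cntf stood at 96.4 CPM with N+F and 150 CPM in the control of hippocampal glia (0.644, 0.624 to 0.665). The cortical pair had 72.9 CPM with N+F and 159 CPM in the control (0.459, 0.444 to 0.474). Astrocyte markers summed to 4647 CPM with N+F and 6432 CPM in the control of hippocampal glia, and to 6333 and 6535 CPM in cortical glia.

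The remaining members had few counts in a control library. Gdnf had 237 counts (3.92 CPM) with N+F and 164 (2.19 CPM) in the control of hippocampal glia, a ratio of 1.79 (1.46 to 2.19). In cortical glia it had 758 counts (9.68 CPM) with N+F and 33 (0.543 CPM) in the control, a ratio of 17.8 (12.6 to 26.1). The cortical N+F library had the highest Gdnf level of the 6 cultures. Shh showed the opposite regional order. It had 386 counts (6.38 CPM) with N+F and 64 (0.857 CPM) in the control of hippocampal glia, a ratio of 7.45 (5.71 to 9.87). In cortical glia it had 4 counts with N+F and 3 in the control, a ratio of 1.03 (0.175 to 7.06). With 3 and 4 counts, a cortical difference within the limits of that interval could not be detected. Ntf3 had 4 counts with N+F and 12 in the control of hippocampal glia (0.412, 0.0968 to 1.36), against 251 counts (3.21 CPM) with N+F and 2 in the control of cortical glia (97.4, 26.7 to 808). The cortical ratios of Gdnf and Ntf3 come from the library pair with the large difference in fibroblast markers. Oligodendrocyte, endothelial, microglia and choroid plexus marker sums were also higher with N+F in that pair, and neuron and oligodendrocyte precursor sums lower. The part of these marker differences in the Gdnf and Ntf3 ratios was not tested. The difference between regions in these responses was not tested, since each region had 1 library per condition.

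**Figure D3:**
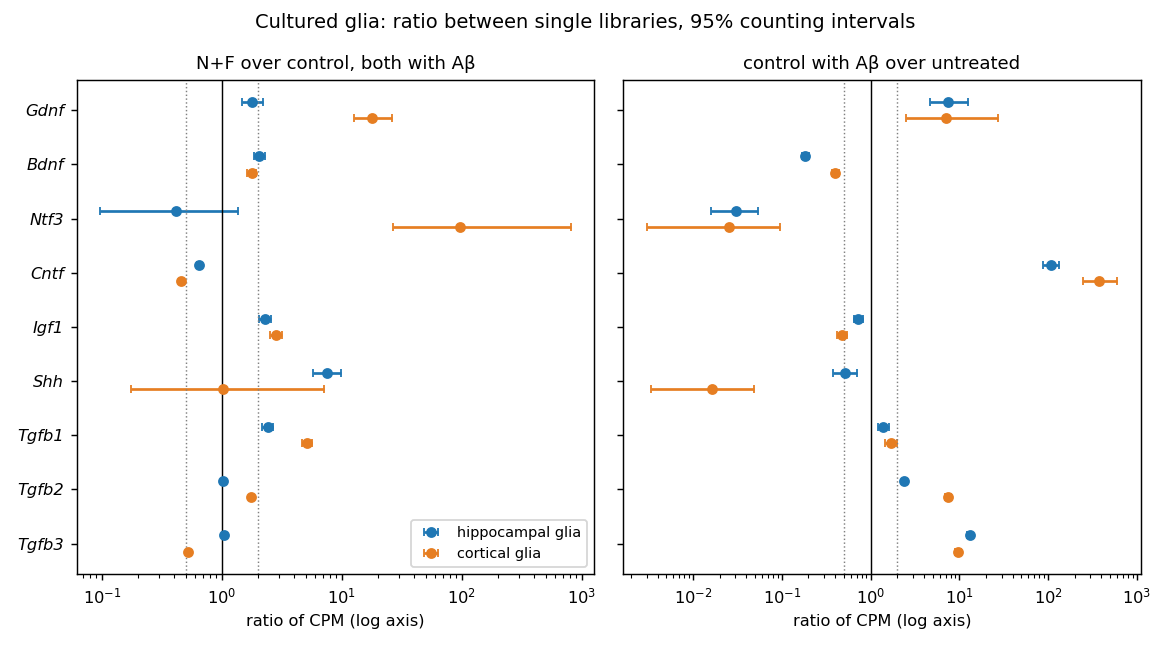
Ratio of CPM (log axis) for each member between single culture libraries, N+F over amyloid beta control on the left and amyloid beta control over untreated on the right, with 95% counting intervals, a solid line at 1 and dotted lines at 2-fold. On the left Igf1 and Tgfb1 lie past 2-fold in both regions, while Gdnf, Shh and Ntf3 lie far apart between regions. On the right Cntf lies furthest out, at 108 and 376.

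Other genes of the pathways were counted by the same rule, by which 3.26% of all genes were higher and 0.267% lower with N+F. The genes named from a list are those whose smaller ratio of the 2 regions was largest. Of 15 hedgehog pathway genes reaching 1 CPM, 3 were called higher and 0 lower. Gli1, a transcription factor induced by hedgehog signalling, stood at 3.04 CPM with N+F and 0.870 CPM in the control of hippocampal glia (ratio 3.50), against 3.97 CPM with N+F and 0.0659 CPM, 4 counts, in the control of cortical glia (60.3). Scube1 had ratios of 9.38 and 6.61. The median log2 ratio of the hedgehog list was -0.02 in hippocampal and -0.61 in cortical glia, beside 0.12 and -0.19 over all genes. Of 16 TGF-beta receptor and signalling genes 1 was called higher, Skil, a feedback inhibitor of Smad proteins, with ratios of 2.44 and 2.46. Of 16 latency and activation genes 3 were higher, led by the fibrillin gene Fbn2 (26.0 and 93.0) and the integrin subunit Itgb3 (14.9 and 23.8). Of 16 TGF-beta targets 1 was higher, Postn, at 25.5 CPM with N+F and 1.75 CPM in the control of hippocampal glia, and at 25.6 CPM with N+F and 0.478 CPM in the control of cortical glia. The median log2 ratio of the targets was 0.09 in hippocampal and 2.90 in cortical glia, and 4 of these targets are fibroblast markers. Of 11 neurotrophin receptor and processing genes 1 was higher, the TrkC gene Ntrk3 (2.42 and 2.74). Of 21 other ligands 2 were higher, Lif (2.22 and 2.74) and Ntf5 (2.77 and 35.2, where the cortical control had 3 counts). None of the 12 genes for GDNF and CNTF receptors, related receptors and downstream signalling was called, and none of the 15 IGF genes. In all, 0 genes of any pathway list were called lower.

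The design also sets the amyloid beta control over the library labelled untreated in each region. Given the markers described above, amyloid beta and the cell content of these libraries cannot be told apart, so the ratios below describe libraries and not a response to amyloid beta. Cntf, Tgfb3 and Tgfb2 were higher with amyloid beta in both regions and Bdnf and Ntf3 lower. Of the 8 members that reached 1 CPM in both pairs, 5 were called, where 41.8% of 14516 genes were: 3 higher, where 18.3% were, and 2 lower, where 23.5% were. In hippocampal cultures alone 4 were higher and 2 lower, where 23.1% and 28% of genes were, and in cortical cultures alone 3 were higher and 4 lower, where 22% and 27.9% were. With so many genes past 2-fold, the count of members called is not read as a result about the members. Of the marker lists, all 6 oligodendrocyte, all 6 endothelial and all 7 microglia markers were called lower in the same pairs, as were 5 of 6 neuron, 5 of 6 inhibitory neuron and 5 of 6 choroid plexus markers. Their part in the member ratios was not tested.

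Cntf had the largest ratios of any member. It stood at 150 CPM with amyloid beta and 1.39 CPM untreated in the hippocampal pair, a ratio of 108 (95% counting interval 87.9 to 133). In the cortical pair it stood at 159 CPM with amyloid beta and 0.421 CPM untreated, 22 counts, a ratio of 376 (248 to 601). Of 7 astrocyte markers 3 were called higher and 3 lower in the same pairs. Gfap stood at 2625 CPM with amyloid beta and 448 CPM untreated for hippocampus, and Slc1a2 at 753 CPM with amyloid beta and 4135 CPM untreated. Their part in the Cntf ratio was not tested. Tgfb3 stood at 180 CPM with amyloid beta and 13.7 CPM untreated in the hippocampal pair (13.1, 12.3 to 14.0), and at 134 CPM with amyloid beta and 13.7 CPM untreated in the cortical pair (9.73, 9.01 to 10.5). Tgfb2 stood at 154 CPM with amyloid beta and 64.5 CPM untreated in the hippocampal pair (2.39, 2.31 to 2.48). In the cortical pair it stood at 99.8 CPM with amyloid beta and 13.2 CPM untreated (7.54, 6.97 to 8.17). Tgfb1 moved less, with ratios of 1.40 (1.22 to 1.6) and 1.71 (1.46 to 2.01). Gdnf had few counts, 164 with amyloid beta and 20 untreated in the hippocampal pair (7.42, 4.65 to 12.5), and 33 with amyloid beta and 4 untreated in the cortical pair (7.09, 2.52 to 27.6). It missed the count of calls only because the cortical pair stayed under 1 CPM.

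Bdnf and Ntf3 were lower with amyloid beta in both regions, and Shh and Igf1 had ratios under 1. Bdnf stood at 6.95 CPM with amyloid beta and 37.7 CPM untreated in the hippocampal pair (0.184, 0.167 to 0.202). In the cortical pair it stood at 12.6 CPM with amyloid beta and 31.4 CPM untreated (0.403, 0.370 to 0.440). Ntf3 had 12 counts with amyloid beta and 352 untreated in the hippocampal pair (0.0308, 0.0158 to 0.0545), and 2 counts with amyloid beta and 68 untreated in the cortical pair (0.0253, 0.00300 to 0.0949). Shh had 64 counts with amyloid beta and 112 untreated in the hippocampal pair (0.517, 0.374 to 0.709), and 3 counts with amyloid beta and 156 untreated in the cortical pair (0.0165, 0.00337 to 0.0492). Igf1 was lower by less, at ratios of 0.731 (0.648 to 0.826) and 0.477 (0.417 to 0.545). Microglia marker sums were 75.4 CPM with amyloid beta and 448 CPM untreated for hippocampus, and 108 and 469 CPM for cortex.

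**Figure D4:**
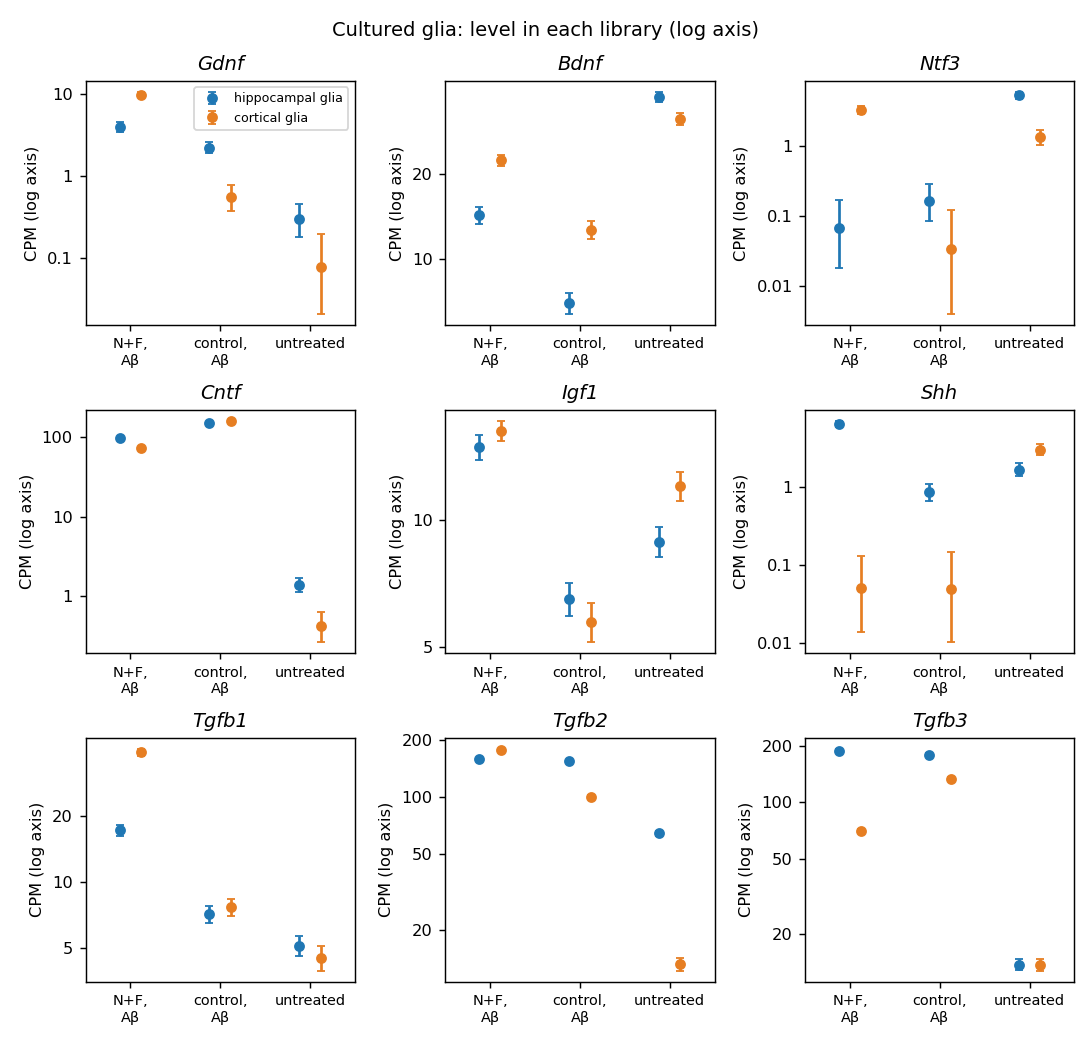
Level of each member (CPM, log axes whose range differs between panels) in the 6 culture libraries, by condition and region, with 95% exact Poisson intervals that are smaller than the point where not seen. Cntf and Tgfb3 are low only in untreated libraries, Igf1 and Tgfb1 are highest with N+F, and Shh in cortical glia lies at 0.0511 CPM with N+F and 0.0494 CPM in the amyloid beta control.

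Pathway genes in the amyloid beta comparison were called in both directions, where 18.3% of all genes were higher and 23.5% lower, and these counts carry the same limit from cell content. Among TGF-beta targets 10 of 16 were higher and 2 lower, with medians of 2.63 and 2.70 on the log2 scale beside -0.03 and -0.01 over all genes. Timp1 stood at 243 CPM with amyloid beta and 0.473 CPM untreated in the hippocampal pair, and at 214 CPM with amyloid beta and 0.613 CPM untreated in the cortical pair. Tagln had ratios of 63.2 and 60.5, and Postn (0.394 and 0.319) and Cthrc1 (0.499 and 0.0255) were lower. Of 16 latency and activation genes 8 were higher, led by Thbs1 (188 and 561) and Ltbp2 (493 and 119), and 5 lower, led by Dcn and Fbn2. Of 16 receptor and signalling genes 3 were higher, with the inhibitors Smad6 (10.5 and 13.2) and Bambi (7.83 and 12.4) in front. The endothelial receptor genes Acvrl1 (0.266 and 0.121) and Eng (0.380 and 0.172) were among 4 lower ones.

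In the trophic pathways, the binding proteins Igfbp3 (114.5 and 335) and Igfbp2 (54.2 and 93.7) led 7 of 14 IGF genes that were higher, and Igfbp6 (0.0837 and 0.00521) was the 1 lower gene. Of 17 hedgehog genes 8 were higher, led by Gas1 (11.7 and 15.1) and Scube3 (6.93 and 17.7), and 6 lower, led by Scube1 and Hhip. Of 13 genes for GDNF and CNTF receptors, related receptors and downstream signalling, 5 were higher and 2 lower. The related receptor gene Osmr (35.4 and 82.9) and the signalling gene Stat3 (9.14 and 11.98) led the higher ones. The 2 lower were Gfra4 (0.0129 and 0.126) and Gfra2 (0.223 and 0.0301). Of 12 neurotrophin receptor and processing genes 3 were higher, led by the proprotein convertase genes Pcsk6 and Furin, and 3 lower, led by Sorcs3 and Ntrk3. Ntrk3 stood at 6.93 CPM with amyloid beta and 103 CPM untreated in the hippocampal pair, and at 7.30 CPM with amyloid beta and 107 CPM untreated in the cortical pair. Of 19 other ligands 12 were higher, led by Dhh (205 and 84.8) and Fgf2 (47.2 and 35.4), and 2 lower, Igf2 (0.0310 and 0.00713) and Ptn (0.193 and 0.308).

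Between regions no member was at least 2-fold different the same way under all 3 conditions, where 0.328% of 12787 genes were, 0.305% higher and 0.0235% lower in hippocampal glia. Over all genes the median log2 ratio between regions was 0.37 with N+F, 0.01 in the amyloid beta control and 0.00 untreated. TMM scaling would shift the N+F log2 ratios by -0.30. Mural cell and fibroblast markers summed to 2660 CPM in hippocampal and 15220 CPM in cortical glia with N+F. Their part in the N+F ratios was not tested. The hippocampal over cortical ratio of Tgfb1 was 0.440 with N+F, 0.928 in the amyloid beta control and 1.13 in untreated cultures. That of Tgfb3 was 2.69 with N+F, 1.35 in the amyloid beta control and 0.999 untreated. Tgfb2 ran the other way, at 0.896 with N+F, 1.55 in the amyloid beta control and 4.87 (4.49 to 5.28) untreated. Choroid plexus markers also differed between the untreated libraries, at 4348 CPM in hippocampal and 497 CPM in cortical cultures, and their part in the Tgfb2 ratio was not tested. Gdnf had 0.405 with N+F, 4.04 in the amyloid beta control and 3.86 untreated, so the region with more Gdnf differed between conditions. Shh was higher in hippocampal glia with N+F (125, 48.4 to 461) and in the amyloid beta control (17.3, 5.67 to 86.3), and lower untreated (0.554, 0.431 to 0.711). Igf1 and Cntf differed by less than 2-fold between regions with amyloid beta, with or without N+F.

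The culture table gives several lines for some symbols, and for all 9 members their number equals the number of curated RefSeq transcripts of the gene, as it does for 75.9% of the 6220 symbols with 2 or more lines. The lines carry no transcript name. Bdnf, whose gene has many alternative first exons, had 12 lines. Line 8 held 829 of 863 Bdnf counts (96.1%) with N+F, 462 of 519 (89.0%) in the amyloid beta control and 876 of 2550 (34.4%) in untreated hippocampal cultures. In cortical cultures it held 781 of 1753 (44.6%) with N+F, 655 of 768 (85.3%) in the amyloid beta control and 214 of 1637 (13.1%) untreated. The level in line 8 was 6.18 CPM with amyloid beta and 12.96 CPM untreated in hippocampal cultures, against 10.8 CPM with amyloid beta and 4.10 CPM untreated in cortical cultures. The other 11 lines together gave 0.763 CPM with amyloid beta and 24.8 CPM untreated in hippocampal cultures, and 1.86 CPM with amyloid beta and 27.3 CPM untreated in cortical cultures. The lower Bdnf total with amyloid beta was thus shared by both regions in these other lines, while line 8 went in opposite directions. With N+F the other lines gave 0.562 CPM in hippocampal and 12.4 CPM in cortical glia, and line 8 gave 13.7 and 9.98 CPM. In hippocampal glia line 8 was higher with N+F than in the control and the other lines were lower. In cortical glia the other lines were higher, and line 8 differed by less than the TMM shift.

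Igf1 had 5 lines, and line 2 held the most counts. In hippocampal cultures it held 60.7% of Igf1 counts with N+F, 54.5% in the amyloid beta control and 79.5% untreated. In cortical cultures it held 69.2% with N+F, 46.8% in the amyloid beta control and 99.4% untreated. Line 2 and the other lines together were both higher with N+F in both regions. Line 2 gave 9.00 CPM with N+F and 3.55 CPM in the control of hippocampal glia, and 11.2 and 2.68 CPM in cortical glia. The other lines gave 5.84 CPM with N+F and 2.96 CPM in the control of hippocampal glia, and 4.995 and 3.05 CPM in cortical glia. In Gdnf, with 4 lines, 1 line held 77.4 to 100% of counts in every library. Ntf3 had 3 lines, and its cortical N+F counts lay in lines 1 and 2 (131 and 120). The 2 counts of its cortical control were in line 3, so that ratio compares different lines. Untreated Ntf3 counts were all in line 1 in hippocampal (352) and all in line 3 in cortical cultures (68). Reads of lines that share exons must be divided by the counting method, so shares of lines are less certain than totals.

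**Figure D5:**
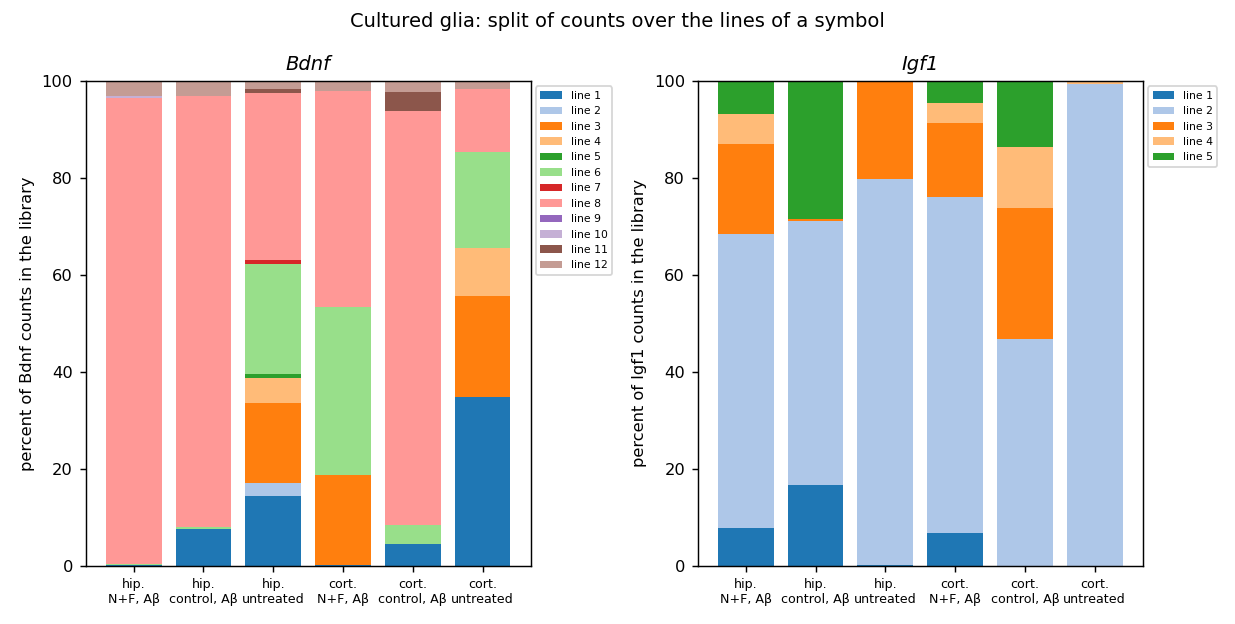
Percent of the Bdnf counts (left, 12 lines) and Igf1 counts (right, 5 lines) that each line of the symbol held in each culture library. For Bdnf line 8 fills most of the bar in 3 of the 4 amyloid beta libraries (85.3 to 96.1%) and 44.6% in the cortical N+F library, while untreated bars are split over many lines.

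The genes whose pattern was most like that of each member were found as those with the highest value of the smaller of 2 Pearson correlations on log2(CPM + 1), over the 7 tissue and over the 6 culture libraries. These correlations are descriptions over few libraries that share depth and cell content. Tgfb2 was most like Sec24d, a coat protein of vesicles leaving the endoplasmic reticulum (0.986 in tissue and 0.981 in culture), and Gsn (0.920 and 0.924). Cntf was most like Prrg2 (0.968 and 0.990) and Plcb3 (0.968 and 0.997), and Shh most like Rif1 (0.961 and 0.955) and Zfp82 (0.925 and 0.959). Bdnf was most like Nov (0.949 and 0.945) and Ap2a2 (0.919 and 0.953). Tgfb3 was most like Lpcat3 (0.952 and 0.940) and Pard3 (0.964 and 0.927), and Tgfb1 most like Zdhhc20 (0.938 and 0.939) and Galns (0.936 and 0.890). The lowest values belonged to Igf1, with Ucp2 (0.930 and 0.878) and Tulp4 (0.833 and 0.922), and to Ntf3, with Wasl (0.871 and 0.886) and Fam105a (0.870 and 0.926). The number of genes at 0.8 or more in both tables was 239 for Cntf, 113 for Tgfb2 and 3 for Igf1. Gdnf was not compared, since it stayed under 1 CPM in every tissue library. Only 3 of these 16 genes remained among the 2 most alike when Spearman correlation was used: Tulp4, Rif1 and Sec24d.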

How the data were processed

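Per the labels' protocols, RNA was isolated in Trizol and libraries were built from 1.3 µg of it with a SMARTER mRNA-Seq kit. The deposited values are counts, whole numbers per gene symbol (tissue) or per line with a repeated symbol (culture) whose totals differ between libraries. TopHat, HISAT2, edgeR and hg19 are named in the submitters' processing notes without roles. The counter, its annotation and its use of strand are not given in the sources used here, and the build behind the counts was taken as not established. Lines of a symbol were summed (44 repeats in 23282 tissue lines, 12238 in 36780 culture lines). 0 columns were unused and 0 lines lacked a name. Tissue replicates were not repeats of 1 library, with a chi-square of 15.02 to 56.1 per gene between them.

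Tissue was tested with edgeR 4.0.16 in R 4.3.3 (filterByExpr, TMM factors 0.895 to 1.11, quasi-likelihood, Benjamini-Hochberg over 15523 genes), with DESeq2 1.42.0 as an alternative. The biological coefficient of variation was 0.206. Cultures were compared as CPM of the library total with exact 95% counting intervals, a count of 0 being set to 3 counts. Both were tested on simulated counts. Replicate numbers in the titles were not used to pair tissue libraries in the main fit. Alternatives covered scaling, filters, pseudocounts, repeated lines and left-out libraries. Members, gene lists and markers were chosen with earlier results of these data known. Genes were named by rule: all members, list genes past the tissue threshold or else the 2 of smallest p, and the 2 called culture genes of largest ratio, taken as the smaller of the 2 regions, per list and direction. Marker genes were named after their values were seen. The rule also names 1 tissue gene that is not reported here.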

Additional observations from a re-analysis of the deposited data

Results flagged for a closer look

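In tissue, the level of 1 library stood apart from the other 3 N+F libraries for 3 of the genes examined. Tgfb3 was 8.23 CPM in N+F library 2, below 14.4 to 15.1 CPM in the others. Col1a1 was highest in 1 N+F library at 8.48 CPM, and Foxa2 was 2.61 CPM in N+F library 1. Chance gives such a gap in about 1 in 20 groups, and 26 groups were examined, 1 for each gene.

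In culture the N+F response of Tgfb3 ran in opposite directions in the regions, with a ratio of 1.05 in hippocampal and 0.526 in cortical glia, both intervals leaving out 1. The difference was not tested, since each region had 1 library per condition. With TMM scaling the hippocampal log2 ratio was -0.06 and the cortical one -0.76, so the opposite direction is not kept under that scaling.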

How the results depend on the processing

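In tissue edgeR called 17 genes. Left-out libraries gave 0 to 29 calls: 0 without any 1 N+F library, with 1066 to 1544 genes at an unadjusted p under 0.05, and 29, 3 and 1 without controls 1, 2 and 3. No filter on low counts gave 29 and DESeq2 147, among them 1 member, Tgfb2. Same-numbered libraries showed little shared deviation (r = -0.00131, -0.0827 and 0.125), beside -0.176 to 0.119 for libraries of different number. So few libraries cannot exclude pairing, and the numbers were kept out of the main fit. With a replicate block edgeR called 0 genes, and 1558 had an unadjusted p under 0.05. With left-out libraries, log2 fold changes of members that changed sign ran from -0.17 to 0.0402 (Bdnf), -0.48 to 0.0584 (Ntf3), -0.21 to 0.046 (Igf1), -0.16 to 0.23 (Shh) and -0.42 to 0.11 (Tgfb1). Shh also turned with library totals only (-0.0841) and with the replicate block (-0.0229).

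In culture, using the highest line of a symbol left 3 members called with amyloid beta, 0 of them lower. The cortical log2 ratio of Bdnf turned to 1.40, since its counts then come from line 8 alone. The highest line of Ntf3, line 1, held 0 counts in the cortical amyloid beta control and untreated libraries. Looking at single regions was chosen after seeing the data. With amyloid beta 4 members were lower in the cortical pair alone. With N+F 4 members were called in the hippocampal pair alone, 4 of them higher, and 5 in the cortical pair alone, 4 higher and 1 lower. On the TMM scale hippocampal Bdnf and cortical Cntf, which are among these, were short of 2-fold. Of 224 recomputed culture ratios that the setting could change, 167 stayed within their counting interval and 57 left it, and 6, of 3 members, changed sign, 1 of them a called ratio. The others that changed sign were the hippocampal N+F ratios of Tgfb2 and Tgfb3 with TMM (-0.10 and -0.06) and, with the highest line, hippocampal Tgfb2 (-0.009) and cortical Bdnf (-0.11) with N+F and the regional ratio of Bdnf with N+F (0.46). Spearman correlation kept 3 of the 16 genes most like a member. In tissue, depth limits Gdnf, Ntf3, Cntf and Shh, with levels of a few CPM or less. In culture it limits cortical Shh and Ntf3.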
